A study of Mus musculus with 8 samples.

Results

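Of the 45706 genes listed, 8 genes of the serpin family of protease inhibitors were followed in natural killer (NK) cells. They were taken by gene symbol because they encode clade B and clade A3 serpins that act on proteases of granules and lysosomes: Serpinb9, Serpinb9b, Serpinb6a, Serpinb6b, Serpinb1a, Serpinb2, Serpina3g and Serpina3f. RNA was sequenced from NK cells titled as intratumoral (tuNK, 4 libraries) and from those with a splenic title (spNK, 4 libraries). The hosts of both groups were BALB/c mice inoculated under the skin with CT26_β2m-/-, a mouse colorectal carcinoma line that lacks β2-microglobulin and with it surface MHC class I, so the spleens were those of tumour-bearing hosts. Age and sex of the mice were not given in the sources used here. Both tissues were digested enzymatically, tumour leukocytes were enriched on Percoll, and cells were sorted magnetically and by flow cytometry with markers that the labels do not name. The tissue tag of all 8 samples gives the opposite tissue to the title, and the groups follow the title. No label says that the libraries came from separate mice, so p-values reflect the spread among these libraries, which may be technical.

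Serpins inhibit proteases by presenting an exposed reactive-centre loop as bait. The protease cuts the loop and stays covalently trapped on the inhibitor, which is used up in the process. Clade B serpins lack a classical secretion signal and act mainly inside the cell, where in killer lymphocytes they are known for protecting the cell from granzymes that leak from its own cytotoxic granules. Serpinb9 inhibits granzyme B, Serpinb9b inhibits granzyme M in mouse, and Serpinb6b inhibits granzyme A in mouse. Serpinb6a inhibits cathepsin G and related serine proteases, Serpinb1a inhibits neutrophil serine proteases, and Serpinb2 inhibits the plasminogen activator urokinase. Serpina3g inhibits lysosomal cathepsins in the cytoplasm, and Serpina3f is its neighbour in the mouse A3 cluster.

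The loop decides which protease a serpin takes as a target, and the paralogue pairs shown here were less alike there than over their whole coding sequence. The coding stretches of the loops are shown 5′ to 3′ from GENCODE M21 transcripts, from the conserved hinge to the codon before the conserved carboxy-terminal block, with capitals at bases that differ from the paralogue or have no partner in it.
Serpinb6a: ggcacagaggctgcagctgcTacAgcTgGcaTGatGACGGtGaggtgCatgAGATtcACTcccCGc
Serpinb6b: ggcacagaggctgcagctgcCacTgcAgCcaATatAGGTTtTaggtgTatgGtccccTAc
Serpinb9: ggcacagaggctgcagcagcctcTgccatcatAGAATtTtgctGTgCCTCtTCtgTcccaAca
Serpinb9b: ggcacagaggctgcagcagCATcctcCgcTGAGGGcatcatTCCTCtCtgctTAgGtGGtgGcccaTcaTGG
Over the whole coding sequence Serpinb6a and Serpinb6b were 81.2% identical, against 66.7% in the loop stretch, where 16 bases differed and 6 were unpaired. Serpinb9 and Serpinb9b were 85.3% identical over the coding sequence and 61.3% in the loop stretch, with 14 bases that differed and 15 unpaired.

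On chromosome 13 of GRCm38, 5 members lie in the order Serpinb1a (chr13:32842092-32851185, minus strand), Serpinb6b (chr13:32965209-32979067, plus strand), Serpinb9 (chr13:33003250-33017957, plus), Serpinb9b (chr13:33027416-33041884, plus) and Serpinb6a (chr13:33917918-34002794, minus). Serpinb6b and Serpinb9 are 24.2 kb apart, Serpinb9 and Serpinb9b 9.46 kb, and Serpinb6a sits 876 kb beyond Serpinb9b with 10 coding genes between them. Serpina3f (chr12:104214544-104221129, plus) and Serpina3g (chr12:104236245-104241939, plus) are 15.1 kb apart, and Serpinb2 is at chr1:107511423-107535478 (plus).

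All 8 members passed the filter on low counts, and 3 were higher and 2 lower in tuNK than in spNK by the edgeR quasi-likelihood test with an adjusted p under 0.05. Of the 14006 genes tested, 69.6% were called, 35.6% higher and 34.0% lower in tuNK, so 5 calls among 8 members is close to the background share. The median log2 fold change of the members was 0.30, beside 0.02 over all genes tested. Serpinb6a carried by far the greatest difference, Serpina3g and Serpina3f were moderately higher, Serpinb6b and Serpinb9 moderately lower, and Serpinb9b, Serpinb1a and Serpinb2 were not called. When libraries were scaled to genes expressed across leukocytes, 8 members were called higher in tuNK and 0 lower, beside 77.5% of all genes tested called higher and 6.46% lower, and this scaling moved the median of all genes by 1.66 on the log2 scale. On that scale the groups did not overlap for any member but Serpinb1a, as for 82.0% of all genes tested.

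Libraries held 38745733 to 53886933 estimated counts. All 12 NK markers were lower in tuNK, with a sum of 2407 to 3159 CPM (counts scaled to library size) in tuNK and 7868 to 10853 CPM in spNK, and none averaged under 1 CPM in either group. Of 31 pan-leukocyte genes tested, 30 were lower in tuNK. All 18 mesenchymal markers tested were higher in tuNK. The sum over the 20 listed was 3322 to 5049 CPM in tuNK and 97.0 to 162 CPM in spNK. Most of the spNK sum was Thy1 (mean 101 CPM), and 13 of the 20 averaged under 1 CPM there. Of 6 epithelial markers tested 4 were higher, but 8 of the 11 listed averaged under 1 CPM in tuNK. In these bulk samples fewer cells of a type and less RNA per cell cannot be told apart. The library spNK 3 had the highest sums in its group for markers of B cells, plasma cells, erythroid cells, neutrophils, mast cells and dendritic cells.

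Among the inhibitors of granzymes, Serpinb9 and Serpinb6b were lower in tuNK relative to all genes, by 1.31-fold and 1.52-fold, and Serpinb9b was not called; all of these are higher in tuNK under leukocyte scaling. Serpinb9 had 294, 255, 194 and 319 CPM in tuNK 1 to 4, against 377, 343, 278 and 391 CPM in spNK 1 to 4. The groups overlapped, since tuNK 1 and tuNK 4 lay above spNK 3. Its mean was 266 ± 54.5 CPM in tuNK and 348 ± 50.5 CPM in spNK (SD, n = 4 each), a log2 fold change of -0.39 ± 0.16 (SE; edgeR adjusted p = 0.0473). That call sat at the threshold. Leaving out tuNK 2, tuNK 3, spNK 1, spNK 2 or spNK 4 in turn lost it, with edgeR adjusted p between 0.0747 and 0.112, and the log2 fold change over all 8 such fits stayed between -0.49 and -0.27.

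Serpinb6b had 129, 130, 131 and 189 CPM in tuNK 1 to 4, against 229, 229, 198 and 225 CPM in spNK 1 to 4. Every tuNK library was below every spNK library. The groups did not overlap for 67.1% of all genes tested, 34.4% higher and 32.7% lower in tuNK, and among the members for 4 higher in tuNK (Serpinb6a, Serpinb2, Serpina3g and Serpina3f) and Serpinb6b lower. The libraries tuNK 1, tuNK 2 and tuNK 3 were nearly alike, and tuNK 4 stood above them and close to spNK 3. The mean was 145 ± 29.5 CPM in tuNK and 220 ± 15.1 CPM in spNK (SD, n = 4 each), a log2 fold change of -0.60 ± 0.13 (SE; edgeR adjusted p = 0.00159). Without tuNK 4 the log2 fold change was -0.76. Under leukocyte scaling Serpinb6b was higher in tuNK (log2 fold change 1.04), which is 0.63 below the median of all genes on that scale.

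Serpinb9b had 78.6, 94.6, 79.9 and 147 CPM in tuNK 1 to 4, against 157, 146, 103 and 103 CPM in spNK 1 to 4. The groups overlapped through tuNK 4, which was above 3 of the 4 spNK libraries. The mean was 100.0 ± 32.1 CPM in tuNK and 127 ± 28.5 CPM in spNK (SD, n = 4 each), a log2 fold change of -0.35 ± 0.22 (SE; edgeR adjusted p = 0.189), and the 95% interval of the log2 fold change ran from -0.79 to 0.09. Without tuNK 4 it was called lower, at -0.60 with an edgeR adjusted p of 0.0116. The same library, tuNK 4, was thus the highest of its group in CPM for Serpinb9, Serpinb9b and Serpinb6b, the 3 neighbours on chromosome 13. This was not particular to them, since tuNK 4 was also the highest for Serpina3g and Serpina3f on chromosome 12 and for Gzmb. In TPM, Serpinb9 was higher in tuNK 1 (97.0) than in tuNK 4 (87.8).

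**Figure D1:**
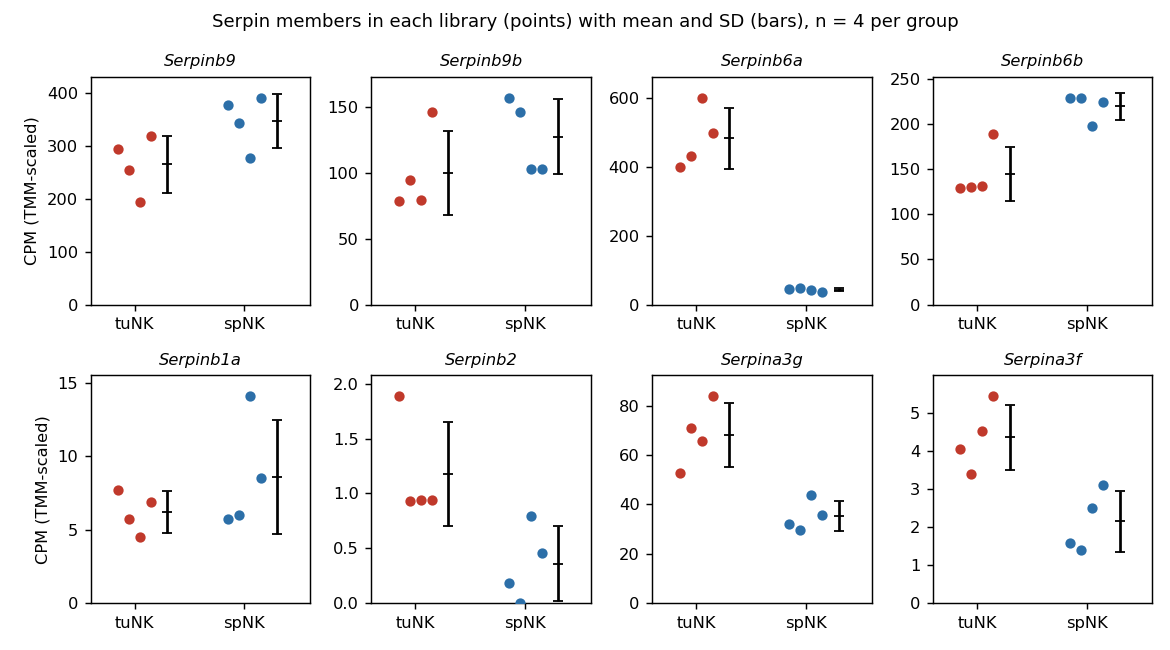
TMM-scaled CPM of each serpin by library, tuNK left of spNK in each panel, with points for the 4 libraries and a bar with its error for the mean and SD; each panel has its own linear axis from 0. Serpinb6a separates the groups by 11.2-fold, and Serpinb9 and Serpinb9b overlap. The top tuNK point is tuNK 4 for Serpinb9, Serpinb9b and Serpinb6b, and also for Serpina3g and Serpina3f.

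Serpinb6a rose 11.2-fold in tuNK. It had 400, 431, 599 and 499 CPM in tuNK 1 to 4, against 46.0, 47.2, 41.9 and 36.6 CPM in spNK 1 to 4. Every tuNK library lay far above every spNK library. The mean was 482 ± 88.3 CPM in tuNK and 42.9 ± 4.80 CPM in spNK (SD, n = 4 each), a log2 fold change of 3.49 ± 0.15 (SE; edgeR adjusted p = 1.66e-08), ranked 1763 of the 14006 genes by its size. Leaving out any 1 library kept it between 3.36 and 3.56, and under leukocyte scaling it was 5.17, which is 3.50 above the median of all genes on that scale. Among the genes listed, its level across the 8 libraries ran most closely with Cstb, an intracellular inhibitor of cysteine cathepsins (Pearson r = 0.997, over log2(CPM + 1)), and Serpinh1, the collagen chaperone (r = 0.992). Both r include the large difference between the groups and do not show that the genes vary together within a group. Within tuNK, Serpinh1 had 893, 634, 862 and 667 CPM in tuNK 1 to 4. It was highest in tuNK 1, where Serpinb6a was lowest, and next highest in tuNK 3, where Serpinb6a was highest. The mesenchymal markers differed between the groups in the same direction, and their part in the Serpinb6a difference was not tested. Its gene overlaps Nqo2 (54.4 CPM in tuNK, 39.6 CPM in spNK), Ripk1 and the antisense gene 1110046J04Rik on the opposite strand, and the strand setting of the authors' counting is not given in the sources used here.

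Serpinb1a and Serpinb2 were scarce in both groups. Serpinb1a had 7.74, 5.71, 4.50 and 6.92 CPM in tuNK 1 to 4, against 5.72, 5.98, 14.1 and 8.52 CPM in spNK 1 to 4. The groups overlapped and spNK 3 stood above the other libraries. It was also the library with the highest sum of neutrophil markers, at 172 CPM. The other spNK libraries had at most 138 CPM and the tuNK libraries at most 37.6 CPM. In tuNK that sum was mostly Mmp9 (mean 27.6 CPM), and 13 of the 14 neutrophil markers averaged under 1 CPM there. As given above, spNK 3 also had the highest sums in its group for other cell types, mast cells among them. The part of any of these cells in the Serpinb1a level was not tested. The log2 fold change of Serpinb1a was -0.47 ± 0.31 (SE; edgeR adjusted p = 0.2, 95% interval -1.07 to 0.14), and -0.13 without spNK 3. It was higher in tuNK under leukocyte scaling, at 1.12.

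Serpinb2 had 1.89, 0.932, 0.940 and 0.945 CPM in tuNK 1 to 4, against 0.186, 0, 0.796 and 0.453 CPM in spNK 1 to 4. The groups did not overlap in CPM, but they did in TPM (transcript abundance per length), where spNK 3 was listed at 4.28. The log2 fold change was 1.71 ± 0.93 (SE; edgeR adjusted p = 0.125), with a 95% interval from -0.12 to 3.54. On the same libraries limma-voom called it higher in tuNK (2.94, adjusted p = 0.026), as did leukocyte scaling (3.29). The spNK 3 library also held 335 estimated counts of Serpinb10, with at most 26 in any other library and 0 in all 4 tuNK libraries. Serpinb10 overlaps Serpinb2 by 6476 bases on the same strand, and 9.94% of the 60-base windows of Serpinb2 transcripts also occur in it, so the assignment of reads between the pair is uncertain. Of Serpinb2's pathway, the urokinase receptor Plaur rose to 97.3 CPM in tuNK, against 0.492 CPM in spNK (log2 fold change 7.62 ± 0.64, SE; edgeR adjusted p = 1.02e-05). Urokinase itself, Plau, averaged 0.963 CPM in tuNK and 0.273 CPM in spNK and was not called. In all, 2 of 4 tested genes of the plasminogen activator system were higher and 0 lower.

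The A3 serpins were higher in tuNK, Serpina3g by 1.94-fold and Serpina3f by 2.03-fold. Serpina3g had 52.5, 71.0, 65.7 and 83.9 CPM in tuNK 1 to 4, against 31.9, 29.5, 43.8 and 35.7 CPM in spNK 1 to 4. All tuNK libraries lay above all spNK libraries, with tuNK 1 the nearest to them. The mean was 68.3 ± 13 CPM in tuNK and 35.2 ± 6.24 CPM in spNK (SD, n = 4 each), a log2 fold change of 0.95 ± 0.16 (SE; edgeR adjusted p = 0.000311). Serpina3f had 4.04, 3.40, 4.52 and 5.44 CPM in tuNK 1 to 4, against 1.58, 1.40, 2.49 and 3.10 CPM in spNK 1 to 4. These groups were close without overlap in CPM, and they overlapped in TPM. The log2 fold change of Serpina3f was 1.02 ± 0.33 (SE; edgeR adjusted p = 0.0169), and the call was lost without tuNK 4 (0.89, edgeR adjusted p = 0.0561). Of the 3 other A3 genes tested, 2 also rose in tuNK, Serpina3i (2.34 CPM in tuNK, 0.602 CPM in spNK) and Serpina3h (0.791 CPM in tuNK, 0.149 CPM in spNK). The A3 genes share sequence: 11.5% of the 60-base windows of Serpina3g transcripts and 6.77% of those of Serpina3f occur in other genes, so reads can be split between them.

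Serpina3g and Serpina3f moved together, and the stretches before their start sites are similar. They are shown from RefSeq promoters of GRCm38.p6 with a match to the interferon-gamma activated site (TTCNNNGAA, the same on both strands) in capitals; Serpina3g is chr12:104236089-104236146 and Serpina3f chr12:104214398-104214456, both on the plus strand.
Serpina3g: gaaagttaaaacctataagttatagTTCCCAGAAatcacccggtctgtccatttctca
Serpina3f: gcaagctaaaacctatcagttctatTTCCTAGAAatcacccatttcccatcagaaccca
The match starts 33 bases before the start site of Serpina3g and 121 bases before the farther upstream of the Serpina3f start sites in RefSeq. The window of the other Serpina3f start site holds the same match. Of 59 aligned bases, 42 are identical. The same letters occur in 8.30% of the 32851 promoter windows, each of 300 bases, and also in those of Serpinb2 and Serpinb6a. They are not in the windows of Serpinb6b, Serpinb9 and Serpinb9b, and Serpinb1a has no entry. A match is a description of the letters and not a site of binding. Of 30 interferon and NF-κB induced genes, 13 were higher and 4 lower in tuNK, among them the negative regulator Socs1 (33.7 CPM in tuNK, 10.6 CPM in spNK, log2 fold change 1.67) and Nfkb2 (410 CPM in tuNK, 61.4 CPM in spNK, 2.74).

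**Figure D2:**
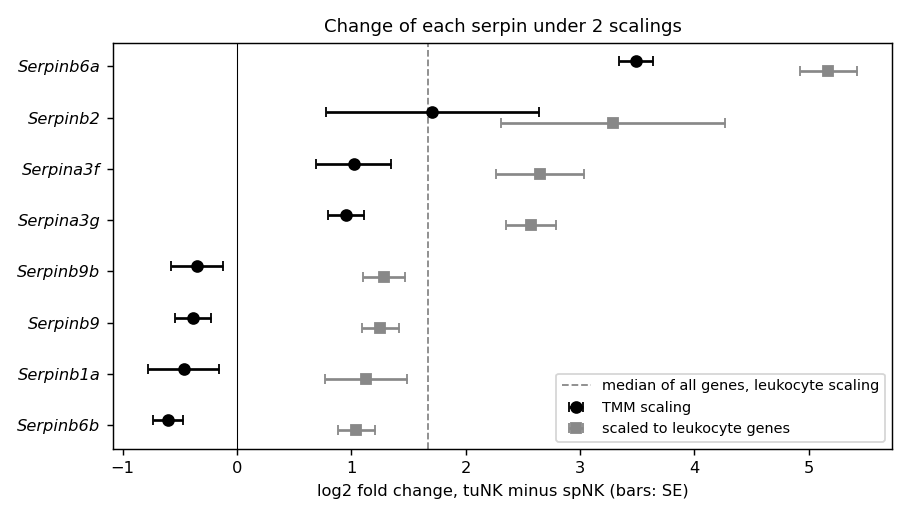
Log2 fold change of each serpin, tuNK minus spNK, with its standard error, under scaling to all genes and under scaling to leukocyte genes. Scaled to all genes, Serpinb6a is at 3.49 and Serpinb9, Serpinb9b, Serpinb6b and Serpinb1a are below 0; scaled to leukocyte genes all 8 are above 0, where the median of all genes is 1.67.

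Compared per length, the order of the serpins differed between the groups. In tuNK, Serpinb6a led with 347 ± 41.9 TPM, followed by Serpinb6b with 79.0 ± 13.9 TPM and Serpinb9 with 78.0 ± 19.1 TPM (SD, n = 4), and these last overlapped. Serpina3g (46.7 ± 5.29 TPM) and Serpinb9b (30.3 ± 8.41 TPM) overlapped as well, and Serpinb1a, Serpina3f and Serpinb2 averaged 3.43, 2.20 and 0.639 TPM in tuNK. In spNK, Serpinb6b led with 146 ± 12.6 TPM and overlapped Serpinb9 at 120 ± 19.0 TPM. Serpinb9b (46.3 ± 10.7 TPM), Serpinb6a (41.5 ± 6.95 TPM) and Serpina3g (28.9 ± 5.83 TPM) followed, each overlapping the next. Serpinb6a was thus the most abundant serpin transcript of the 8 in all 4 tuNK libraries, while 3 of the other members had a higher mean in spNK.

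The 8 transcripts summed to 587 ± 35.5 TPM in tuNK and 391 ± 31.0 TPM in spNK (SD, n = 4 each). Serpinb6a made up 59.1 ± 6.21% of that sum in tuNK and 10.6 ± 1.53% in spNK. Serpinb6b made up 13.4 ± 1.79% in tuNK and 37.4 ± 1.01% in spNK, and Serpinb9 13.3 ± 3.26% in tuNK and 30.6 ± 3.18% in spNK. None of these 3 shares overlapped between the groups. Serpina3g kept a share of 7.97 ± 1.03% in tuNK and 7.50 ± 2.15% in spNK, with overlap.

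**Figure D3:**
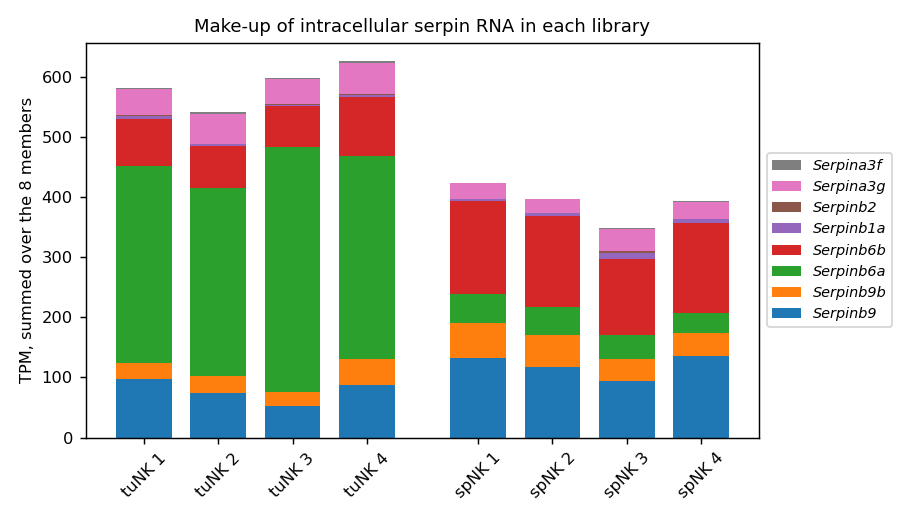
Stacked TPM of the 8 serpins in each library, tuNK left of spNK, with the height of a bar the summed TPM. Serpinb6a fills 54.1 to 68.1% of the bar in the tuNK libraries and 8.34 to 11.7% in the spNK libraries.

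Ratios within a library do not depend on how libraries are scaled. They can still differ with the mix of cells in a library, and the NK and mesenchymal marker sums differed between the groups. The part of that mix in the ratios was not tested. In all, 8 pairs were compared as the log2 of the ratio of CPM, which is not per length, so only its difference between the groups is read. With 4 against 4 libraries the two-sided exact permutation test over 70 assignments cannot go below p = 0.0286, and 5 pairs reached it. Because these 5 tied, their exact p after adjustment over the 8 pairs was 0.0457, so each call depends on the others. Serpinb6b over Serpinb6a, the pair shown with its loops above, was -1.74 ± 0.33 in tuNK and 2.36 ± 0.17 in spNK (SD, n = 4 each; exact p = 0.0286), 17.1-fold lower in tuNK. Serpinb9b over Serpinb9 was -1.43 ± 0.34 in tuNK and -1.46 ± 0.32 in spNK, a difference of 0.03 that was within the spread (exact p = 0.857). Serpina3f over Serpina3g differed by 0.09, also within the spread (exact p = 0.743).

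Inhibitors were then set against the proteases they are known to inhibit. Serpinb9 over Gzmb, the gene of granzyme B, was -2.57 ± 0.24 in tuNK and -0.94 ± 0.14 in spNK (SD, n = 4 each; exact p = 0.0286), 3.09-fold lower in tuNK. Gzmb itself had 1372, 1726, 1245 and 1946 CPM in tuNK 1 to 4, against 797, 589, 573 and 715 CPM in spNK 1 to 4, so the inhibitor and its protease differed in opposite directions relative to all genes. Gzmb was higher in tuNK at a log2 fold change of 1.23 ± 0.16 (SE; edgeR adjusted p = 4.94e-05).

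Serpinb6b over Gzma, the gene of granzyme A, was -4.09 ± 0.29 in tuNK and -5.04 ± 0.15 in spNK (SD, n = 4 each; exact p = 0.0286), 1.92-fold higher in tuNK. Both genes were lower in tuNK relative to all genes, Gzma by more, at 2477 ± 473 CPM in tuNK and 7298 ± 1165 CPM in spNK (SD, n = 4 each); under leukocyte scaling the log2 fold change of Gzma was 0.085. Serpinb9b over Gzmm, the gene of granzyme M, was 5.61 ± 0.44 in tuNK and 3.0 ± 0.20 in spNK (SD, n = 4 each; exact p = 0.0286), 6.11-fold higher in tuNK. Gzmm averaged 1.97 ± 0.649 CPM in tuNK and 15.8 ± 2.95 CPM in spNK (SD, n = 4 each).

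The cathepsin inhibitor Serpina3g was lower against Ctsl in tuNK and showed no called difference against Ctsb. Serpina3g over Ctsl was -4.48 ± 0.27 in tuNK and 1.40 ± 0.40 in spNK (SD, n = 4 each; exact p = 0.0286), 59.0-fold lower in tuNK. Ctsl, a lysosomal cysteine protease, had 1514 ± 158 CPM in tuNK and 13.9 ± 5.24 CPM in spNK. Serpina3g over Ctsb, another lysosomal cysteine protease, differed by -0.21, within the spread (exact p = 0.286). Ctsb was also higher in tuNK, at 582 ± 54.4 CPM in tuNK and 261 ± 25.1 CPM in spNK (SD, n = 4 each). Without spNK 1, spNK 2 or spNK 4 the 5 called pairs had exact adjusted p of 0.0571, or 0.0914 for Serpinb6b over Gzma, whose exact p before adjustment was then 0.0571.

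**Figure D4:**
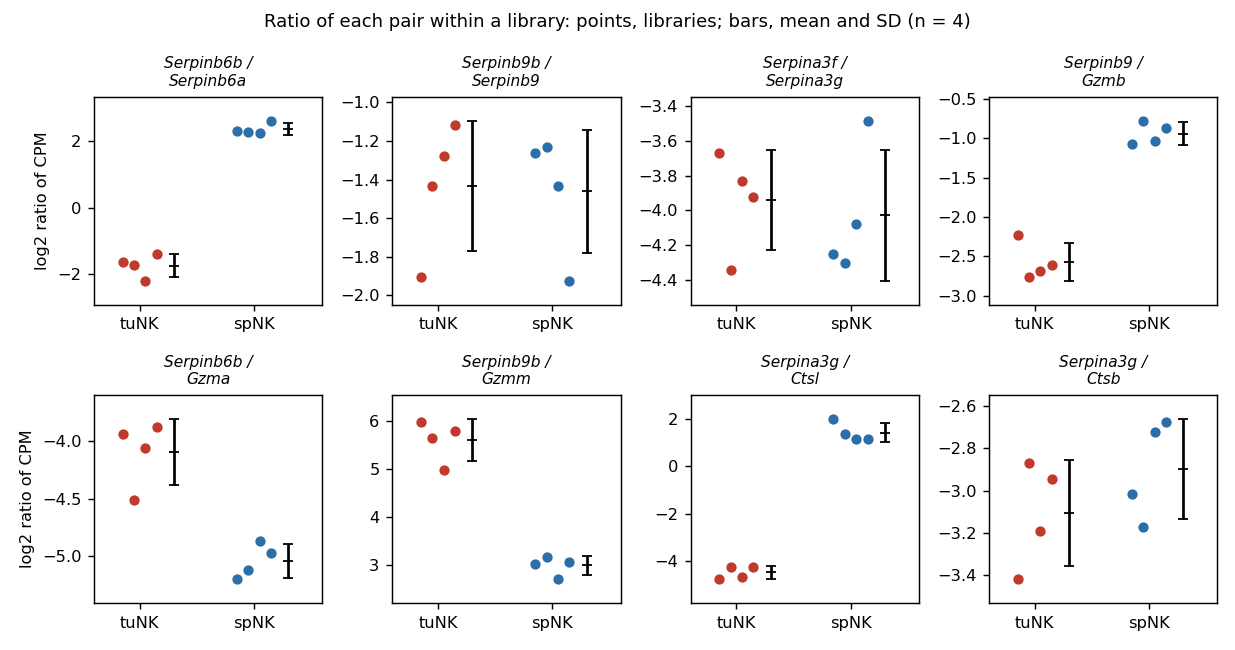
Log2 ratio of CPM within each library for the 8 pairs, tuNK left of spNK, with points for libraries and bars for the mean and SD. Serpinb6b over Serpinb6a, Serpinb9 over Gzmb and Serpina3g over Ctsl are lower in tuNK, Serpinb6b over Gzma and Serpinb9b over Gzmm are higher, and the other 3 pairs overlap.

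Around the members, the protease and inhibitor lists split. Among 8 granzymes tested, 5 were higher and 3 lower in tuNK; Gzmc averaged 326 CPM in tuNK and 2.25 CPM in spNK, and Gzmk 8.46 CPM in tuNK and 40.0 CPM in spNK. Of 13 lysosomal proteases 4 were higher and 9 lower, with Lgmn, the asparagine-specific endopeptidase, at 68.3 CPM in tuNK and 9.21 CPM in spNK, Ctsz at 213 CPM in tuNK and 69.3 CPM in spNK, and Ctse at 39.7 CPM in tuNK and 247 CPM in spNK. Of 8 granule proteases of neutrophils, mast cells and basophils tested, a list that also holds the carboxypeptidase Cpa3, 7 were lower in tuNK and 0 higher. Cma1, a chymase, averaged 7.16 CPM in tuNK and 297 CPM in spNK. Elane, neutrophil elastase, had 0 counts in all tuNK libraries and 12.5 CPM in spNK, at least 166-fold lower against a floor of 3 counts per library.

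Other inhibitors of the same compartments were mixed. Of 6 cystatins and related inhibitors tested, 2 were higher and 3 lower in tuNK. Cstb rose to 203 CPM in tuNK, against 35.3 CPM in spNK (log2 fold change 2.52 ± 0.11, SE; edgeR adjusted p = 1.65e-08). Cst7, cystatin F of killer-cell lysosomes, averaged 75.7 CPM in tuNK and 121 CPM in spNK, lower relative to all genes and higher under leukocyte scaling (0.98). Among 7 other serpins tested, 4 were higher and 3 lower, with Serpinh1 at 764 CPM in tuNK and 0.636 CPM in spNK, and Serpinf1 at 52.2 CPM in tuNK and 0.922 CPM in spNK. Of 22 other clade B serpins listed, 21 were found, under 22 gene identifiers. Only 2 of these identifiers were tested and neither was called. Another 11 identifiers had 0 counts in all libraries, among them a second identifier of Serpinb10. Of 9 genes for granzyme delivery and granzyme B targets, 3 were higher and 5 lower, with perforin (Prf1) at 555 CPM in tuNK and 1415 CPM in spNK, and the granule proteoglycan serglycin (Srgn) at 268 CPM in tuNK and 541 CPM in spNK; under leukocyte scaling Srgn was higher in tuNK (0.61) and Prf1 was not called (0.29).

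The closest companions of the other serpins among 97 listed genes were given by Pearson's r of log2(CPM + 1) over the 8 libraries, as a description that includes the difference between the groups. Serpinb6b ran with Srgn (r = 0.983), Serpina3g with Gzmc (0.950), Serpinb2 with Parp1 (0.922) and Serpina3f with Serpina3g (0.890). Serpinb9 ran with Nfkb1 (0.839), Serpinb1a with the mast cell protease gene Mcpt4 (0.813) and Serpinb9b with Serpinb6b (0.799).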

How the data were processed

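Sorted NK cells were profiled by polyadenylated RNA-seq in 8 libraries. Per the submitters' processing notes, FastQC 0.11.9, STAR, Salmon and GRCm38 (mm10) were used; neither the annotation release nor how strand was handled is given in the sources used here. The authors deposited 2 tables, 1 of expected counts per gene without normalisation and 1 of TPM. Between 7.90 and 8.82% of the expected counts in a library were fractional, and they were rounded. In R 4.3.3, edgeR 4.0.16 kept 14006 of 45706 genes with filterByExpr by group, scaled them with TMM and compared tuNK with spNK by the robust quasi-likelihood F test, adjusted by Benjamini-Hochberg over all genes tested (threshold 0.05). The common dispersion was 0.0710. CPM are TMM-scaled. Leukocyte scaling took TMM factors from 31 pan-leukocyte genes. Folds against a group at 0 use a floor of 3 counts per library; floors cover counting error only, since reads carry no molecular identifiers. Pair ratios used log2 of CPM + 0.1. Simulated counts with known changes were used to test the scripts.

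Alternatives were other scalings and filters, DESeq2 1.42.0, limma 3.58.1 (voom, or trend on log2 TPM + 1 or + 0.1), a test against a fold of 1.5, the replicate number as a block, and each library left out. The members, lists and tests were chosen with earlier results of these data known. Named genes are the members, the genes of the pairs, up to 4 genes per list with the smallest adjusted p and a mean of at least 10 CPM, the 3 most abundant of each marker list, and the 2 listed genes most like each member. Serpina3i, Serpina3h, Serpinb10, Plau and the genes overlapping Serpinb6a were named after their values were seen. Loop stretches were read from GENCODE M21 transcripts and promoter stretches from RefSeq. The result of 1 gene that met the naming rule is not reported here.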

Additional observations from a re-analysis of the deposited data

Results flagged for a closer look

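In 10 of 85 sets of 4 values tested, 1 library stood far from the other 3, and chance marks about 1 in 20 such sets. Serpinb6b was set apart upward in tuNK 4 (189 CPM, next 131 CPM) and downward in spNK 3 (198 CPM, 128 TPM). Serpinb2 was set apart upward in tuNK 1 (1.89 CPM, 1.13 TPM) and, in TPM, in spNK 3 (4.28 TPM). Serpinb10, which overlaps Serpinb2, reached 6.84 CPM in spNK 3, with 0.589 CPM next. Serpina3n, another A3 serpin, stood apart at 2.02 CPM in tuNK 1 and 0.906 CPM in spNK 4. Gzmc, a granzyme gene, reached 848 CPM in tuNK 4, with 213 CPM next.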

How the results depend on the processing

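Serpinb6a and Serpina3g kept their direction and their call under every alternative run. Scaling to leukocyte genes called 8 members higher and 0 lower, turning Serpinb9 to 1.25, Serpinb9b to 1.29, Serpinb6b to 1.04 and Serpinb1a to 1.12 on the log2 scale, and calling Serpinb2 at 3.29; it also turned Gzma (0.085), Cst7 (0.98), Spint2 (0.53), Prf1 (0.29), Srgn (0.61), Casp8 (0.65) and Icam1 (0.25). Against a fold of 1.5, 0 members were called lower, and Serpinb9 (-0.39), Serpinb6b (-0.60) and Serpina3f (1.02) lost their calls. Serpinb9b was called with library size alone (-0.52) and on log2 TPM + 1 (-0.60) or + 0.1 (-0.62). Serpinb2 was called by limma-voom (2.94) and turned to -0.038 on log2 TPM + 1.

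With 1 library left out at a time, 2 to 3 members were called higher and 1 to 3 lower. Log2 fold changes ran from -0.49 to -0.27 for Serpinb9, from -0.60 to -0.25 for Serpinb9b and from 0.86 to 1.24 for Serpina3f. Differences in log2 ratio ran from -4.21 to -3.95 for Serpinb6b over Serpinb6a, from -1.74 to -1.56 for Serpinb9 over Gzmb, from 0.87 to 1.08 for Serpinb6b over Gzma, from 2.49 to 2.82 for Serpinb9b over Gzmm and from -5.97 to -5.69 for Serpina3g over Ctsl. They ran from -0.13 to 0.19 for Serpinb9b over Serpinb9, turning negative without tuNK 3 (-0.02), tuNK 4 (-0.08) or spNK 4 (-0.13), and from -0.00318 to 0.27 for Serpina3f over Serpina3g, turning negative without tuNK 1 (-0.00318) or spNK 2 (-0.00303) and with a pseudocount of 1 CPM (-0.14). Leaving out spNK 3 and tuNK 1 together, chosen after seeing the data, again called 3 higher and 2 lower, with Serpinb9 at -0.54. The causes were not tested.

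Replicate numbers were not shown to pair the libraries. Deviations of same-numbered libraries correlated between -0.00109 and 0.105, beside -0.127 to 0.0715 for differently numbered ones. So few correlations cannot exclude a pairing. With the replicate block 4926 genes were called higher and 4629 lower, beside 4983 and 4761 without it, and 3 members higher and 2 lower. For the ratios the sign-flip test over 4 pairs cannot go below p = 0.125 (exact, adjusted 0.2), so the called differences of -4.10, -1.63, 0.94, 2.61 and -5.88 had no call under the replicate block. Against a fold of 1.5, 3350 genes were called higher and 3028 lower. On log2 TPM + 1, 3978 were higher and 5484 lower; with library size alone, 4329 and 5510; under leukocyte scaling, 10848 and 905. Of the members, Serpinb2 had counts near the floor of 3, with 0 in spNK 2 and 8 in spNK 1.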

Other observations

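The promoter windows of the serpins differ in CpG content. The farther upstream of the Serpinb6a start sites in RefSeq, which faces Ripk1 on the other strand, held 25 CpG in its 300-base window, an observed over expected ratio of 1.12 that 98.5% of the 32851 promoter windows did not exceed, with 3 GC boxes (GGGCGG, either strand), which 35.7% of windows hold at least once. Its other start site had 5 CpG and a ratio of 0.27, and the windows of the other members with an entry had ratios from 0 to 0.35. Ripk1, the kinase of death-receptor signalling whose gene meets Serpinb6a there, averaged 32.5 CPM in tuNK and 52.0 CPM in spNK (log2 fold change -0.68, edgeR adjusted p = 0.00033), the opposite direction to Serpinb6a relative to all genes.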
